A study of Mus musculus with 26 samples.

Results

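RNA levels of 7 mouse genes were followed through all 10 groups of the study: Podxl, its paralogs Podxl2 and Cd34, the genes for its binding partners ezrin (Ezr), NHERF1 (Slc9a3r1) and NHERF2 (Slc9a3r2), and Mkln1, the gene next to it. They were taken by symbol from the 55291 symbols of each of 2 tables of raw counts, and all 7 passed the filter on low counts in both. The first table held 8 libraries of lines in which endogenous CTCF, tagged with mAID and eGFP, was degraded for 24 h with 1 µM 5-Ph-IAA while 1 µg/ml doxycycline switched on a Flag-Halo-tagged CTCF from the Tigre locus. That CTCF was either full length (WT) or carried a deletion in the first zinc finger (ΔZF1, which is reported to weaken RNA binding). Each form was sampled in both states (ESC-ΔZF1, NPC-ΔZF1, ESC-WT, NPC-WT) with 2 libraries a group. All 4 rescue groups carried OsTIR(F74G) at Rosa26 and an Hb9 mCherry reporter, and each rescue line was 1 clone, so CTCF form and clone cannot be told apart. The second table gave 3 libraries each of untreated parental E14TG2a cells (WT) and of clones with a cassette of a self-cleaving peptide, eGFP and the SV40 polyadenylation signal after the first coding exon of both alleles of Podxl (Podxl pA) or Grb10 (Grb10 pA). These 3 genotypes were sampled as embryonic stem cells (ESC) and after 2 days of differentiation toward neural progenitor cells (NPC) in N2B27 on laminin. The NPC of the rescue lines also had 2 days of differentiation. The paper describes the 24 h treatment as given to ESC and NPC before harvest. The labels do not say how many clones each truncated line holds, so its insertion and its clone cannot be told apart. The study calls the libraries of a group biological replicates, but whether they came from separate cultures is not given in the labels, so p-values measure the spread between these libraries.

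Podocalyxin, the product of Podxl, is a heavily sialylated transmembrane mucin best known from the foot processes of kidney podocytes, and it also marks the apical face of early epithelia and pluripotent cells. CD34, a marker of blood progenitors and endothelium, and endoglycan, the product of Podxl2, complete its family. Through its cytoplasmic tail podocalyxin binds the PDZ proteins NHERF1 and NHERF2, which join it to ezrin and so to cortical actin. Mkln1 encodes muskelin, a subunit of the CTLH ubiquitin ligase complex, and shares nothing with this pathway here but its position.

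In the mm10 assembly (GRCm38, GENCODE M21) Podxl occupied chr6:31519488-31563981 on the minus strand and Mkln1 chr6:31398735-31516811 on the plus strand, so that their 3′ ends faced each other across 2676 bases. Podxl2 lay on the same chromosome at chr6:88842558-88875044 (minus strand). The other members were unlinked to Podxl: Cd34 at chr1:194938819-194961279 (plus), Ezr at chr17:6738041-6782784 (minus), Slc9a3r2 at chr17:24639286-24650327 (minus) and Slc9a3r1 at chr11:115163341-115181181 (plus). Counting ignored strand, and exons of 4 members overlapped a gene of the opposite strand, by 1099 bases for Podxl2 with Gm15612, 148 for Cd34 with Gm16897, 39 for Mkln1 with Mkln1os and 4 for Ezr with Sytl3. Reads in those stretches cannot be told apart.

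The truncating cassette went into the seam between exon 1 and intron 1 of Podxl. The designed guide is shown first with the bases that lie in exon 1 in capitals, then with its NGG PAM in capitals, and below it stands the coding part of exon 1 with the bases the guide covers in capitals. All 3 are written 5′ to 3′ on the minus strand, the sense strand of Podxl.
Podxl guide: TAATGgtgagtggacagccg
Podxl guide with PAM: taatggtgagtggacagccgCGG
Podxl exon 1, coding bases: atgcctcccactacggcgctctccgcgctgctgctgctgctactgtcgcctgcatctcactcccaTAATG
The guide matched chr6:31563564-31563583, with 5 bases in exon 1 and 15 in intron 1, and the coding stretch was chr6:31563579-31563648. The cassette was designed to enter 1 base before the end of exon 1, which leaves 69 coding bases upstream of it. Exon 1 holds 70 of 1509 coding bases and 403 of the 5379 bases (7.49%) of the 8-exon transcript, so reads from a transcript that ends in the cassette could still be counted there.

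Totals ran from 6425179 to 28730435 counts in the rescue libraries and from 1907505 to 8845087 in the others. Summed markers of pluripotency (7 genes) fell from 3624 to 5557 CPM (counts per library scaled to a common size) over the ESC libraries to 352 to 832 over the NPC libraries, and those of neural progenitors (7 genes) went from 23.3–54.0 to 130–222 CPM. Hes5 was at 0 in every library of ESC-WT, NPC-WT, ESC Podxl pA and NPC Grb10 pA. Markers of extraembryonic endoderm (12 genes) also stood higher in NPC, at 424–556 CPM for NPC Grb10 pA, 537–699 for NPC WT and 1148–1207 for NPC Podxl pA, and at 195–227 for NPC-WT and 1887–1974 for NPC-ΔZF1, against 15.3–78.3 over all ESC libraries. Markers of endothelium and blood (8 genes) went from 104–202 CPM in ESC to 18.6–43.3 in NPC, a sum that was mostly Pecam1 in ESC (130 CPM in ESC WT and 182 in ESC-WT). Ptprc was at 0 in every library of most groups. Mesoderm markers (5 genes) summed to 8.24–76.0 CPM over all groups. In bulk RNA, fewer cells of a type and less RNA per cell cannot be told apart. The Grb10 pA lines had lost most Grb10 RNA, with 117–127 CPM in ESC WT against 30.3–35.2 in ESC Grb10 pA, and 766–811 in NPC WT against 52.0–59.2 in NPC Grb10 pA.

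Podxl was the member that moved most with differentiation. In parental cells it stood at 33.7, 34.8 and 26.3 CPM in ESC WT and at 231, 246 and 258 CPM in NPC WT. The groups were far apart, and the log2 fold change was 2.92 (SE 0.15, adjusted p = 3.4e-15). In this comparison 32.8% of the 13268 genes tested were dysregulated, that is, had an adjusted p of at most 0.05 and an absolute log2 fold change of at least 0.5 in edgeR's quasi-likelihood test, and 3 of the 7 members were. The others were Cd34 and Slc9a3r1, both up-regulated.

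The rise was seen in every line. Among rescue cells Podxl went from 51.9 and 33.6 CPM in ESC-WT to 408 and 420 CPM in NPC-WT. This rise was part of the study's reason for choosing Podxl, so it is no independent evidence of its direction. In ΔZF1 cells Podxl went from 32.0 and 36.9 CPM to 566 and 533 CPM, a log2 fold change of 3.99 (SE 0.19, adjusted p = 3.8e-07) against 3.30 (SE 0.18, adjusted p = 1.01e-06) in WT rescue cells. Of the members, 2 were dysregulated between NPC-WT and ESC-WT (41.9% of all genes) and 5 between NPC-ΔZF1 and ESC-ΔZF1 (37.3%). In Grb10 pA cells Podxl went from 36.4, 32.0 and 41.8 CPM to 326, 365 and 362 CPM (log2 fold change 3.24, SE 0.14, adjusted p = 2.23e-16).

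Ordered by level, Podxl in the second table was lowest in ESC Podxl pA (mean 6.42 ± 5.56 CPM, SD, n = 3), then NPC Podxl pA (22.4 ± 1.72), ESC WT (31.6 ± 4.61), ESC Grb10 pA (36.7 ± 4.90), NPC WT (245 ± 13.5) and NPC Grb10 pA (351 ± 21.9). ESC WT and ESC Grb10 pA overlapped, and the other neighbors in this order did not. In the rescue table the order was ESC-ΔZF1 (34.5 ± 3.47, n = 2), ESC-WT (42.7 ± 12.9), NPC-WT (414 ± 8.37) and NPC-ΔZF1 (549 ± 23.9). The ESC pair overlapped, the NPC pair did not, and neither pair passed the test. CPM between the 2 tables were normalized separately and were not tested against each other.

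**Figure D1:**
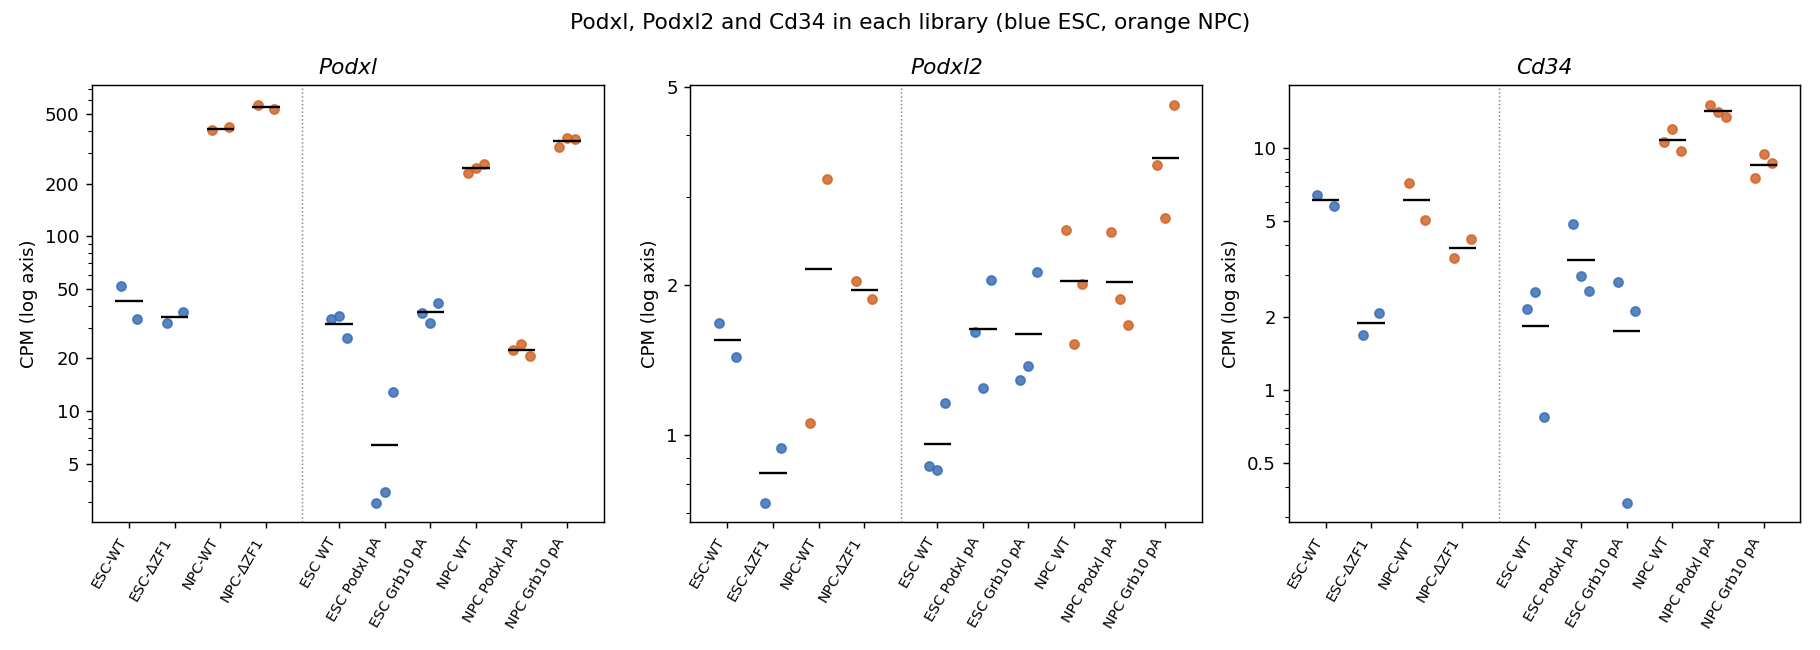
CPM of Podxl, Podxl2 and Cd34 (log axes) in each of the 26 libraries, with blue points for ESC, orange for NPC and bars for group means; the dotted line separates the rescue lines from the parental and truncated lines. Podxl lay at or below 51.9 CPM in every ESC library and at or above 231 CPM in every NPC library except the 3 NPC Podxl pA libraries, which lay between 20.8 and 24.2 CPM.

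Measured per length, as CPM divided by the kilobases of merged exons (RPKM), Podxl changed its place among the members. In ESC WT the mean level of Podxl was 5.76 RPKM, below Ezr (75.9), Slc9a3r1 (35.6) and Slc9a3r2 (9.72) and near Mkln1 (4.47). The place of Mkln1 depends on how length is counted. With the longest transcript of each gene Mkln1 was at 10.6, 10.9 and 12.5 in the ESC WT libraries, and Podxl at 6.26, 6.47 and 4.89. In NPC WT it was 44.7 RPKM, which put it above Slc9a3r2 (9.35) and below Slc9a3r1 (59.8) and Ezr (83.7). In both NPC rescue groups it stood above Ezr and Slc9a3r1, with 75.5 RPKM against 45.3 and 46.5 in NPC-WT and 100.1 RPKM against 48.1 and 48.8 in NPC-ΔZF1. Cd34 stayed between 0.241 and 1.95 RPKM and Podxl2 between 0.146 and 0.627 RPKM in all group means. Both would stand higher per longest transcript, of 3063 bases for Cd34 and 2195 for Podxl2, than per merged exons of 7290 and 5749 bases.

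Most of the Podxl RNA was missing from Podxl pA cells in both states. ESC Podxl pA libraries held 3.00, 3.42 and 12.8 CPM against 33.7, 34.8 and 26.3 CPM in ESC WT, a log2 fold change of −2.73 (SE 0.24, 95% CI −3.23 to −2.23, adjusted p = 2.22e-07). NPC Podxl pA libraries held 22.3, 24.2 and 20.8 CPM against 231, 246 and 258 CPM, a log2 fold change of −3.45 (SE 0.15, adjusted p = 9.71e-15). All truncated libraries lay below all WT libraries of their state. Podxl was the sole member dysregulated in either comparison, where 0.339% (ESC) and 0.55% (NPC) of all genes were. DESeq2 called 0 of the other 6 members too. None of the 6 had an unadjusted p under 0.05, which 9.2% (ESC) and 10.2% (NPC) of all genes had.

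The remaining Podxl signal was 9.14% of the WT mean in NPC, and 8.04% to 10.5% over pairs of libraries. In ESC it was 20.3% of the WT mean, with pairs from 8.61% to 48.8%. The wide ESC range came from 1 library, replicate 3, which was also the shallowest of all with 1907505 counts and 25 Podxl counts. Without that library the remainder in ESC was 10.2% and the log2 fold change −3.31. The 5 genes most like Podxl across libraries stood in replicates 1, 2 and 3 of ESC Podxl pA at 57.6, 54.2 and 62.1 CPM (Lrp2), 15.4, 18.5 and 27.2 (Morc4), 12.7, 11.7 and 14.9 (Cldn6), 53.9, 51.5 and 65.7 (Prtg) and 23.3, 22.1 and 27.7 (Ptpn13), with replicate 3 highest for each. Their part in the result was not tested.

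Even in the truncated line the remaining signal was higher in NPC than in ESC. It rose by 2.21 on the log2 scale (SE 0.25, adjusted p = 5.03e-08). Of the members, 4 were dysregulated between NPC Podxl pA and ESC Podxl pA, where 31.8% of all genes were. The loss of Podxl differed between the states by −0.72 (SE 0.33, adjusted p = 0.456), or −0.15 without ESC Podxl pA replicate 3. No member passed the test of that difference (0.098% of all genes did). Podxl and Slc9a3r2, 2 of the 7 members, had an unadjusted p under 0.05 (0.0376 and 0.0359), beside 10.2% of all genes. DESeq2 called 0 members as well.

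**Figure D2:**
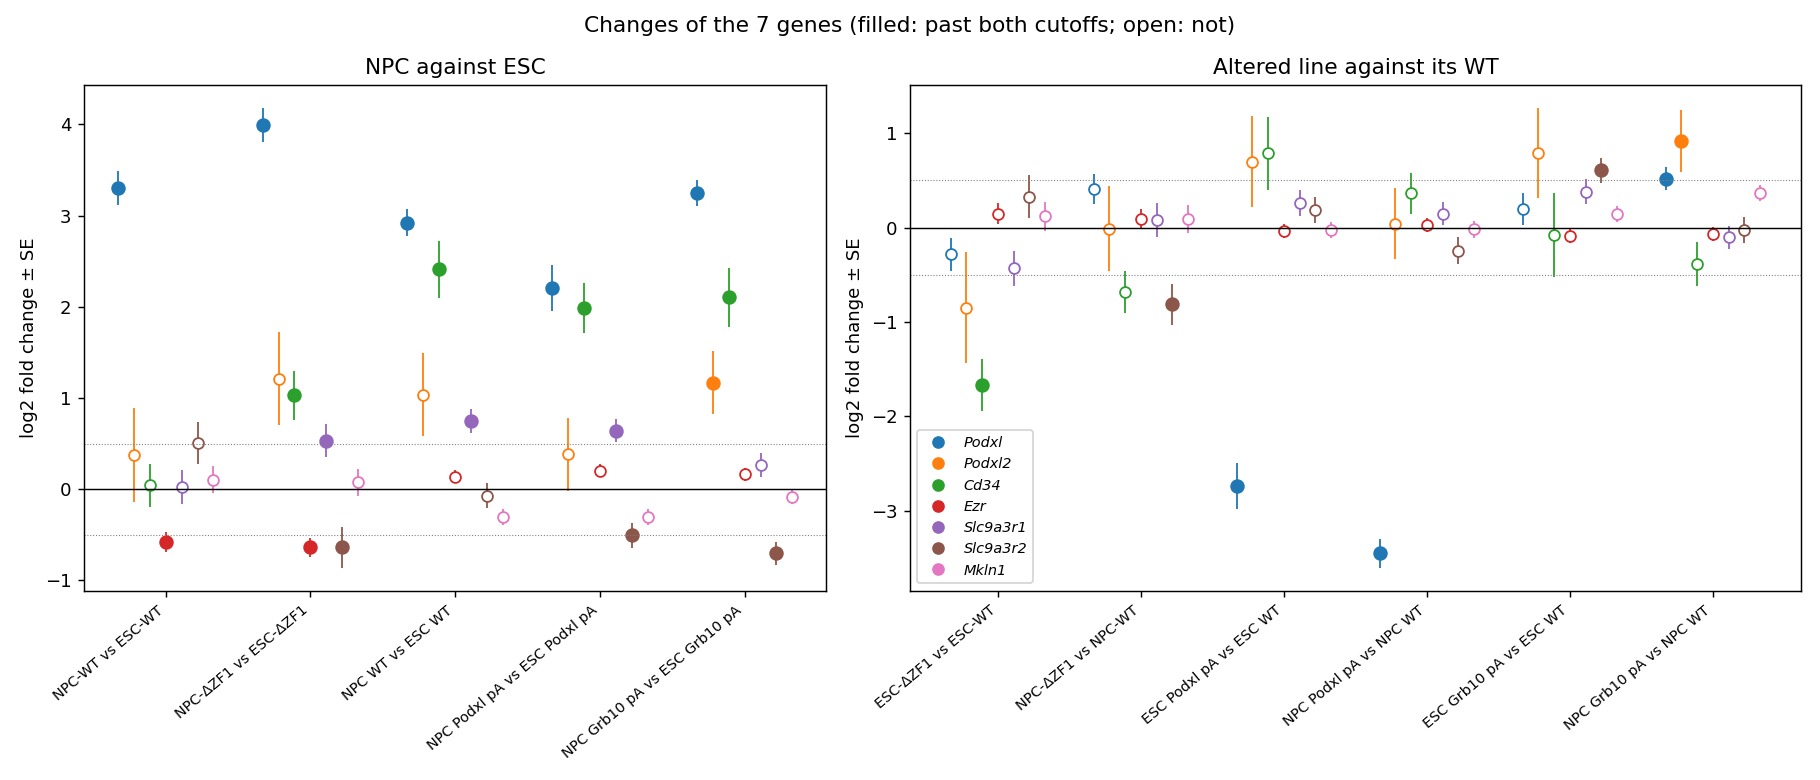
Log2 fold change ± SE of the 7 genes in 11 comparisons, NPC against ESC on the left and altered lines against their WT on the right; filled points passed both cutoffs, and dotted lines mark the fold cutoff of 0.5. Podxl was filled in all 5 NPC comparisons, from 2.21 to 3.99, and in the Podxl pA comparisons no other gene was filled.

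With Podxl truncated, neither paralog rose to a level that passed the test. Cd34 was at 4.84, 2.96 and 2.57 CPM in ESC Podxl pA and at 2.17, 2.56 and 0.774 CPM in ESC WT. In NPC it was at 15.1, 14.1 and 13.5 CPM against 10.6, 12.0 and 9.74 CPM. The truncated libraries lay above the WT libraries in both states, but the changes of 0.79 in ESC (SE 0.38, 95% CI −0.01 to 1.58, adjusted p = 0.547) and 0.36 in NPC (SE 0.22, 95% CI −0.09 to 0.81, adjusted p = 0.624) missed the cutoff, at 2 to 21 counts per ESC library.

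Podxl2 was scarce everywhere, with 3 to 58 counts per library. It stood at 1.61, 1.24 and 2.05 CPM in ESC Podxl pA and at 0.869, 0.853 and 1.16 CPM in ESC WT (log2 fold change 0.69, 95% CI −0.29 to 1.68). In NPC the values were 2.56, 1.87 and 1.66 CPM against 2.58, 1.52 and 2.01 CPM (0.04, 95% CI −0.74 to 0.82). The ESC groups did not overlap and the NPC groups did. The intervals reach up to 1.58 for Cd34 and 1.68 for Podxl2 in ESC, and rises of up to those sizes lay within them.

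The share of Podxl in the family's RNA was lower in truncated than in WT cells, which restates the fall of Podxl, since it made up most of the sum and neither paralog had a called change. Podxl made up 96.0% ± 0.451 (SD, n = 3) of the summed RPKM of Podxl, Podxl2 and Cd34 in NPC WT and 63.9% ± 2.22 in NPC Podxl pA. In ESC the share was 93.3% ± 0.637 in WT and 54.5% ± 20.4 in Podxl pA, where libraries ran from 36.6% to 76.7%. The shares did not overlap in either state, and the exact two-sided permutation p was 0.1, the smallest that 3 against 3 libraries can give. The sum itself was 46.5 RPKM in NPC WT and 6.38 RPKM in NPC Podxl pA, and 6.17 and 1.93 RPKM in ESC.

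In lines with intact Podxl the share was above 85% throughout. It was lowest in ESC-WT (87.2% ± 2.51, n = 2) and highest in NPC-ΔZF1 (99.1% ± 0.084). ESC-ΔZF1 stood at 94.0% ± 0.344 and NPC-WT at 98.4% ± 0.056, and with 2 against 2 libraries no exact test can go below p = 0.333. The share in NPC Podxl pA depends on how length is counted: the difference from NPC WT was −32.1 percentage points with merged exons, −48.2 with the longest transcript of each gene and −37.0 with counts alone.

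**Figure D3:**
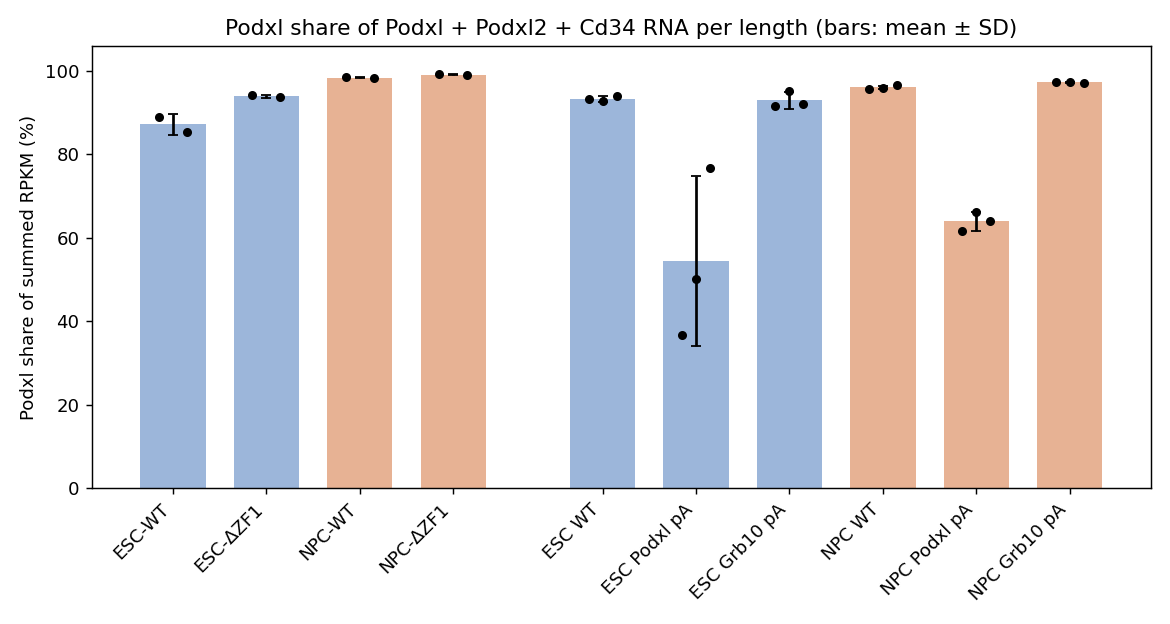
Podxl's share (%) of the summed RPKM of Podxl, Podxl2 and Cd34 in the 10 groups; bars are means, error bars SD, and points single libraries, blue for ESC and orange for NPC. The 2 Podxl pA groups stand at 54.5% and 63.9%, and every other group is at or above 87.2%.

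Cd34 itself rose with differentiation, though less than Podxl. It went from 2.17, 2.56 and 0.774 CPM in ESC WT to 10.6, 12.0 and 9.74 CPM in NPC WT (log2 fold change 2.41, SE 0.31, adjusted p = 4.1e-07). The rise was 1.99 in Podxl pA and 2.10 in Grb10 pA cells. ESC Grb10 pA replicate 2 held a single Cd34 count (0.344 CPM). In WT rescue cells Cd34 did not separate the states, at 6.41 and 5.80 CPM in ESC-WT and 7.15 and 5.06 CPM in NPC-WT (0.04, 95% CI −0.49 to 0.57). Of the endothelium and blood markers, of which Cd34 is a classical companion, 2 were tested in parental cells, where Pecam1 fell (−2.22) and Tek did not pass (0.26). In WT rescue cells 3 of the 7 tested markers rose, among them Cdh5 (3.07), and 2 fell, among them Pecam1 (−3.88), with a median of 0.57. Their part in the result was not tested.

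Podxl2 rose in Grb10 pA cells, from 1.29, 1.38 and 2.12 CPM in ESC to 3.48, 2.73 and 4.60 CPM in NPC (log2 fold change 1.17, SE 0.35, adjusted p = 0.00658; 0.0575 with DESeq2). Podxl, Cd34 and Slc9a3r2 were dysregulated there too, which made 4 members, and 34.6% of all genes were. In parental cells the change of Podxl2 was 1.04 (SE 0.46, adjusted p = 0.0698), with 0.869, 0.853 and 1.16 CPM in ESC WT against 2.58, 1.52 and 2.01 CPM in NPC WT.

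Ezrin links the complex to actin, and Ezr was among the most abundant members. In parental cells it did not pass the test, with 255, 258 and 236 CPM in ESC WT and 262, 285 and 279 CPM in NPC WT (log2 fold change 0.14, SE 0.07, adjusted p = 0.12). In rescue cells it fell, from 217 and 227 CPM in ESC-WT to 137 and 161 CPM in NPC-WT (−0.58, SE 0.11, adjusted p = 0.00155). The fall in ΔZF1 cells, from 251 and 241 to 159 and 157 CPM, was −0.64 (SE 0.11, adjusted p = 0.000868). Without NPC-WT replicate 1 the WT value was −0.46, under the fold cutoff. The 2 tables differ in line, treatment and sequencing, which cannot be told apart, and the difference was not tested.

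Slc9a3r1 rose in parental cells from 71.9, 63.3 and 70.4 CPM in ESC WT to 105, 113 and 127 CPM in NPC WT, with no overlap (log2 fold change 0.75, SE 0.13, adjusted p = 3.34e-05). The same step gave 0.64 in Podxl pA cells (adjusted p = 0.000167). In Grb10 pA cells it was 0.27 (adjusted p = 0.0832), where ESC Grb10 pA replicate 2 stood at 123 CPM beside 74.4 and 73.6 CPM. Without that library the value was 0.54 and passed. In NPC-WT rescue cells the pair of libraries was split, at 68.8 and 110 CPM, around 87.1 and 88.4 CPM in ESC-WT (0.02, SE 0.18).

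Slc9a3r2, the scarcer of the pair, was down-regulated in NPC in 3 of the 5 lines (Podxl pA, Grb10 pA and ΔZF1). It stood at 26.5, 25.9 and 24.8 CPM in ESC WT and 30.3, 23.4 and 20.5 CPM in NPC WT, which overlapped (log2 fold change −0.07, SE 0.14). In Grb10 pA cells it fell from 38.2, 42.3 and 38.0 CPM to 25.2, 23.1 and 23.7 CPM (−0.70, SE 0.13, adjusted p = 4.85e-05). In Podxl pA cells the fall from 33.0, 26.0 and 30.3 to 22.8, 20.4 and 19.4 CPM was −0.50 (SE 0.14, adjusted p = 0.00378), at the fold cutoff, and the call was lost in 16 of 27 alternatives, among them DESeq2, no filter on low counts and the 2 groups fitted alone. In WT rescue cells Slc9a3r2 was higher in NPC, at 17.0 and 28.5 CPM against 16.5 and 15.3 CPM in ESC-WT, without overlap, and the change of 0.50 missed the cutoff (SE 0.23, adjusted p = 0.0956). It was called as a rise without a filter (0.57, adjusted p = 0.0154) and without NPC-WT replicate 1 (0.86, adjusted p = 7.79e-07), and was 0.12 without NPC-WT replicate 2.

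None of the 3 partner genes passed the test after truncation of Podxl, where only 0.339% (ESC) and 0.55% (NPC) of all genes were dysregulated. Ezr differed by −0.04 in ESC (95% CI −0.19 to 0.11) and 0.03 in NPC (−0.12 to 0.17). Slc9a3r1 was at 77.9, 81.5 and 86.7 CPM in ESC Podxl pA, above all ESC WT libraries, yet its log2 fold change of 0.26 had an adjusted p of 0.58. In NPC the value was 0.15 (adjusted p = 0.74). Slc9a3r2 differed by 0.19 in ESC (adjusted p = 0.734) and by −0.25 in NPC (adjusted p = 0.589). Extraembryonic endoderm markers summed to 1148–1207 CPM in NPC Podxl pA against 537–699 CPM in NPC WT. Of 10 tested markers 5 were up-regulated, where 0.55% of all genes were dysregulated in either direction. The part of these markers in the result was not tested.

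**Figure D4:**
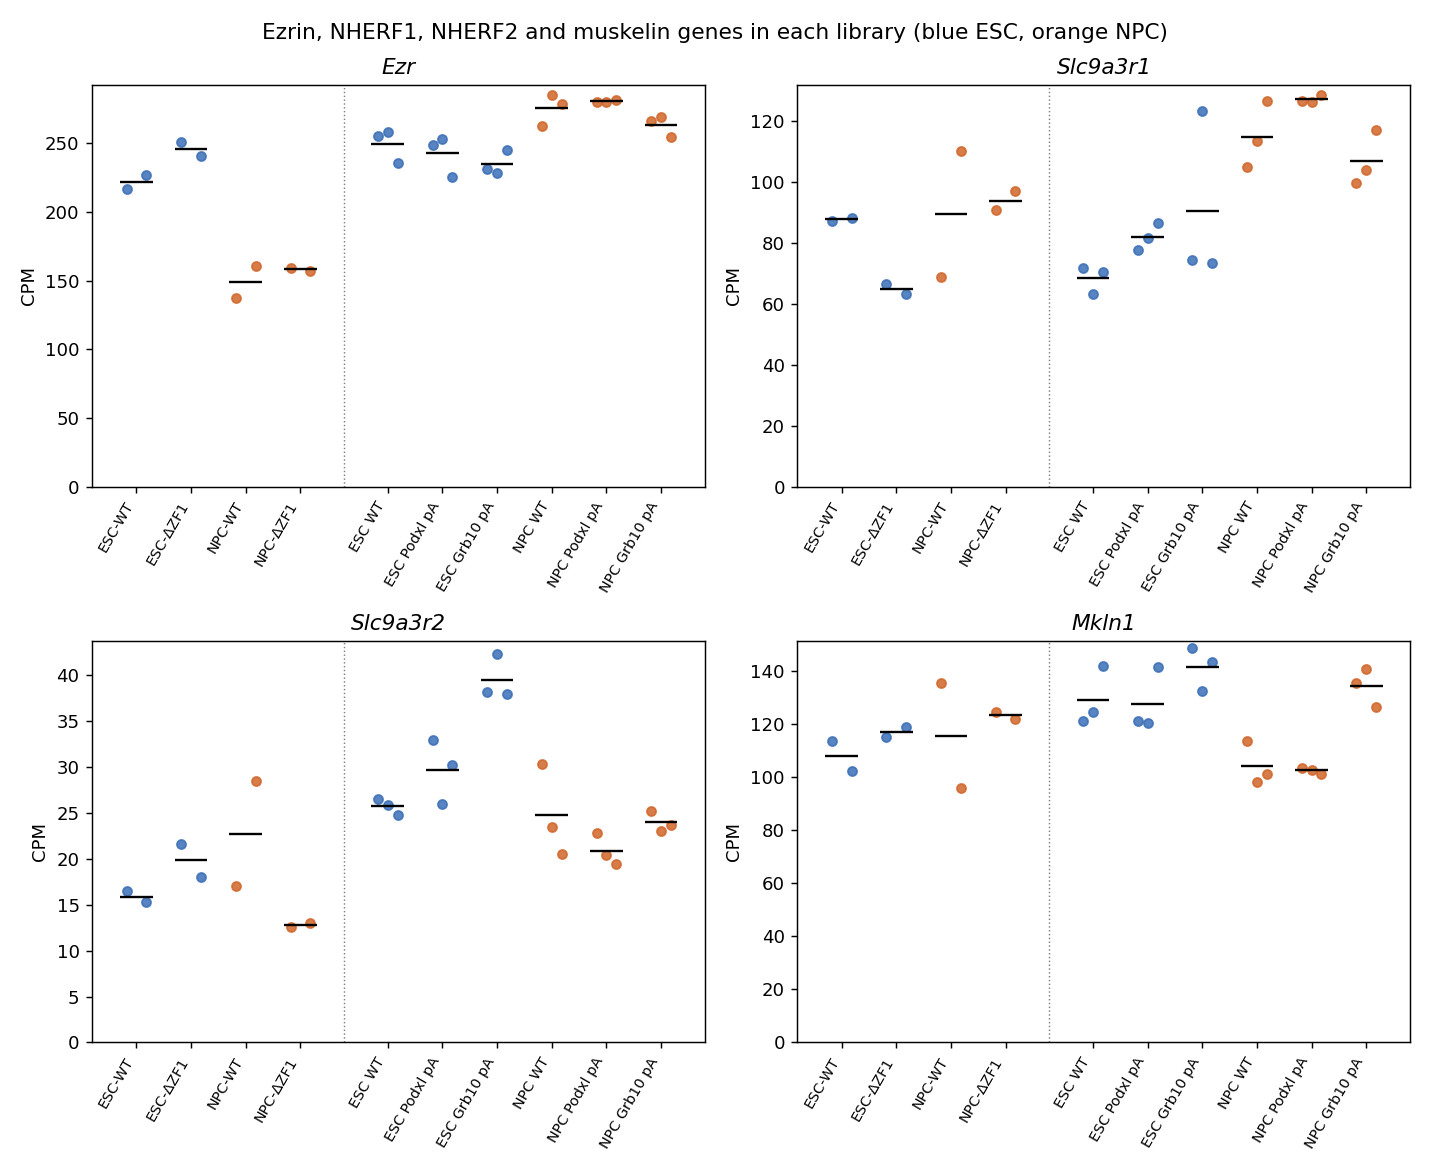
CPM (linear axes from 0) of Ezr, Slc9a3r1, Slc9a3r2 and Mkln1 in each library, blue for ESC and orange for NPC, with bars for group means and a dotted line between the rescue lines and the others. Ezr lies between 137 and 161 CPM in the 4 NPC rescue libraries and between 217 and 285 CPM in all other libraries, and Slc9a3r2 is highest in the 3 ESC Grb10 pA libraries (38.0 to 42.3 CPM).

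Mkln1, whose 3′ end faces that of Podxl, showed no change that passed the test after the truncation. Its libraries stood at 121, 120 and 142 CPM in ESC Podxl pA and at 121, 125 and 142 CPM in ESC WT (log2 fold change −0.02, 95% CI −0.20 to 0.15). In NPC they stood at 104, 103 and 101 CPM against 114, 98.2 and 101 CPM (−0.02, 95% CI −0.20 to 0.16). The groups overlapped in both states, and changes beyond 0.20 in either direction lay outside both intervals. With differentiation Mkln1 was lower in parental cells by 0.31 (SE 0.09, adjusted p = 0.00504), which passed the p cutoff and not the fold cutoff, while Podxl rose 7.59-fold in the fitted model.

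Around Podxl, 43 annotated genes lay within 1 Mb, of which 6 passed the filter in the second table, all downstream of Podxl. Mest, an imprinted gene expressed from the paternal allele, starts 840.434 kb from the start of Podxl. It was the sole neighbor dysregulated in a Podxl pA comparison, at 749 ± 39.3 CPM in NPC WT and 523 ± 6.47 CPM in NPC Podxl pA (log2 fold change −0.52, SE 0.09, adjusted p = 0.00348). The value was −0.48 without NPC WT replicate 2, under the fold cutoff. In ESC Podxl pA it was −0.11 (adjusted p = 0.791). Mest also fell in the other truncated line, by 1.41 on the log2 scale in ESC Grb10 pA and by 0.66 in NPC Grb10 pA, comparisons that share their WT libraries with those of Podxl pA. Copg2, Cep41 and the noncoding Gm13835 lay between −0.04 and 0.23 in both Podxl pA comparisons, and none passed.

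With the ΔZF1 form of CTCF, Podxl had no called change against WT rescue cells in either state. In ESC it was at 32.0 and 36.9 CPM in ΔZF1 and 51.9 and 33.6 CPM in WT (log2 fold change −0.29, SE 0.18, adjusted p = 0.465). In NPC the ΔZF1 libraries, at 566 and 533 CPM, were both above the WT libraries at 408 and 420 CPM, but the change of 0.41 (SE 0.16, 95% CI 0.04 to 0.77) had an adjusted p of 0.105. The difference between the states was 0.69 (SE 0.24, adjusted p = 0.172). None of the 7 members passed this test of the difference (2.7% of all genes did). Of the 7, 3 had an unadjusted p under 0.05, beside 18.3% of all genes. DESeq2 called 1, Slc9a3r2 (−1.18, adjusted p = 0.023), and without a filter on low counts Podxl (0.67) and Slc9a3r2 were called. Podxl was called too when either NPC-WT library was left out, with 0.61 and 0.62.

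A single member was dysregulated in ΔZF1 cells of each state, against 3.61% of all genes in ESC and 17.6% in NPC. In ESC it was Cd34, at 1.69 and 2.09 CPM in ΔZF1 and 6.41 and 5.80 CPM in WT (log2 fold change −1.67, SE 0.28, adjusted p = 0.0168). The call did not survive the loss of any 1 of these 4 libraries, with adjusted p from 0.129 to 0.187 and log2 fold changes from −1.81 to −1.53. Cd34 was also lower in NPC-ΔZF1, at 3.52 and 4.22 CPM against 7.15 and 5.06 CPM (−0.68, SE 0.22, adjusted p = 0.0556). Parental ESC WT held 0.774 to 2.56 CPM of Cd34, from 2 to 15 counts per library. The 2 tables were normalized separately and differ in line, treatment and sequencing, so these levels were not tested against the rescue groups.

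In NPC the member was Slc9a3r2, at 12.5 and 13.0 CPM in ΔZF1 and at 17.0 and 28.5 CPM in WT (log2 fold change −0.82, SE 0.22, adjusted p = 0.027). The WT pair differed widely, and without NPC-WT replicate 2 the value was −0.43 and not called. It was also lost without NPC-ΔZF1 replicate 1 or 2 (adjusted p = 0.153 and 0.14) and with the 2 groups fitted alone (0.102). NPC-WT replicate 2 was the higher of its pair for Slc9a3r1 (110 against 68.8 CPM) and Podxl2 (3.26 against 1.06 CPM) too, and the lower for Mkln1 (96.0 against 135 CPM). Over tested genes with enough counts, the chi-square per gene between the 2 libraries (spread of counts around equal proportions) was 64.1 in NPC-WT. It was 3.00 to 6.37 in the other rescue groups, and all rescue tests share 1 fit. In the second table, whose tests also share 1 fit, the highest value was 27.8, between ESC WT replicates 1 and 2. Next was 22.5, between ESC Grb10 pA replicates 1 and 2, and the lowest was 1.69, between NPC Podxl pA replicates 1 and 2. Extraembryonic endoderm markers were higher in NPC-ΔZF1, with 12 of 12 up-regulated (7.19% of all genes were), and their part in the result was not tested.

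Slc9a3r1 lies on chromosome 11, whose genes as a whole were lower in ΔZF1 cells, with medians of −0.46 in ESC and −0.57 in NPC. Its own values were −0.43 in ESC (SE 0.19, adjusted p = 0.25) and 0.08 in NPC (SE 0.18, adjusted p = 0.794). Relative to the chromosome they were 0.02 and 0.64, and the latter passed (adjusted p = 0.0386). Most of that 0.64 is the chromosome's median, which came from the same comparison and was entered as a fixed offset. The NPC-ΔZF1 libraries of Slc9a3r1, at 90.9 and 97.0 CPM, lay between the NPC-WT libraries at 68.8 and 110 CPM. Ezr and Mkln1 were within 0.15 of 0 in both states.

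Between NPC-ΔZF1 and ESC-ΔZF1, besides Podxl, Cd34 rose from 1.69 and 2.09 to 3.52 and 4.22 CPM (1.03, adjusted p = 0.0103) and Slc9a3r1 from 66.6 and 63.4 to 90.9 and 97.0 CPM (0.53, adjusted p = 0.0384). Slc9a3r2 fell from 21.6 and 18.1 to 12.5 and 13.0 CPM (−0.64, adjusted p = 0.039), as did Ezr. The calls of Slc9a3r1 and Slc9a3r2 were each lost without any of 6 of the 8 rescue libraries. That of Cd34 was lost without ESC-ΔZF1 replicate 1 (adjusted p = 0.0966) or NPC-ΔZF1 replicate 2 (0.0708).

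The Grb10 pA lines, whose insertion lies on another chromosome than Podxl, differed from WT in some members as well. In ESC Grb10 pA Slc9a3r2 was dysregulated (9.09% of all genes were), at 38.2, 42.3 and 38.0 CPM against 26.5, 25.9 and 24.8 CPM (log2 fold change 0.61, SE 0.13, adjusted p = 0.0021). In NPC Grb10 pA Podxl and Podxl2 were (16.6% of all genes). Podxl rose from 231, 246 and 258 to 326, 365 and 362 CPM (0.52, SE 0.12, adjusted p = 0.00191), and Podxl2 from 2.58, 1.52 and 2.01 to 3.48, 2.73 and 4.60 CPM (0.92, SE 0.33, adjusted p = 0.0388). In the same comparison 3 of 5 tested neural progenitor markers fell and none rose (median −1.12), 3 of 7 pluripotency markers rose and 1 fell, and 3 of 10 extraembryonic endoderm markers fell and none rose. Genes of chromosome 8, which holds no member, were lower in this line as a whole, with medians of −0.49 in ESC and −0.48 in NPC and 288 and 314 of 730 down-regulated. The part of either in the members' changes was not tested.

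The call of Slc9a3r2 was kept in all 27 alternatives, while those of Podxl and Podxl2 were close to the cutoffs. That of Podxl went below the fold cutoff without NPC Grb10 pA replicate 2 or 3 (0.49 each) or NPC WT replicate 1 (0.48). That of Podxl2 was lost with DESeq2 (adjusted p = 0.212), without a filter (0.116), with the 2 groups fitted alone (0.0549), and without NPC Grb10 pA replicate 1 or 3 or NPC WT replicate 2 or 3. Mkln1 was also higher in NPC Grb10 pA, at 136, 141 and 127 CPM against 114, 98.2 and 101 CPM, with a log2 fold change of 0.37 (SE 0.08, adjusted p = 0.00187) under the fold cutoff. Cd34 was lower, at 7.51, 9.43 and 8.69 against 10.6, 12.0 and 9.74 CPM (−0.39, adjusted p = 0.22). The change of Slc9a3r2 differed between the states by −0.63 (SE 0.19, adjusted p = 0.0416), where 5.9% of all genes passed.

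Beyond the members, genes of the same pathway changed in both directions with differentiation. The counts that follow leave the 7 members out, and over all genes tested in NPC WT against ESC WT 16.5% were up-regulated and 16.3% down-regulated, with a median log2 fold change of −0.01. Of 11 ERM and NHERF linker genes tested, 1 rose, the chloride channel gene Cftr (3.00, at 0 to 2 counts per ESC WT library), and 1 fell, the GTPase gene Rhoa (−0.51, under the fold cutoff in 13 of the alternatives). Of 7 other sialomucins and mucin-type glycoproteins, 3 rose, among them Cd44 (2.48) and Prom1 (1.83), which encodes prominin, and 2 fell, among them Muc1 (−2.67). Of 22 enzymes that build O-glycans or attach sialic acid, 7 rose, among them the sialyltransferase St6gal1 (2.10) and the GalNAc transferase Galnt3 (1.53), and 2 fell, among them B3gnt3 (−2.85). The medians of these lists were −0.10, 0.45 and 0.06.

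Of 21 genes of apical polarity and lumen formation, 6 were up-regulated and 2 down-regulated (median 0.30), beside 16.5% and 16.3% of all genes. Crb2 rose by 3.32 and Patj by 1.80, both of the Crumbs complex, and the recycling endosome gene Rab11fip5 fell by 2.15 on the log2 scale. Of 9 other podocyte genes, 4 rose, among them the transcription factor gene Wt1 (5.17), and 2 fell, among them Nphs1 (−2.78), which encodes nephrin. Of the 10 other CTLH subunit genes none rose and 2 fell, Rmnd5b (−0.77) and Ypel5 (−0.56), with a median of 0.01. Between NPC-WT and ESC-WT rescue cells, where the all-gene median was 0.01 and 22% of genes rose and 19.9% fell, the same lists gave 12 of 23 up for apical polarity, 9 of 22 for glycan enzymes, 7 of 10 for podocyte genes, 4 of 9 for sialomucins, 2 of 13 for linkers and 2 of 10 for CTLH. The genes down-regulated there numbered 2, 3, 2, 1, 0 and 1 in that order.

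Few of these genes were called after truncation of Podxl, as were few of all genes (0.55% in NPC and 0.339% in ESC). In NPC Podxl pA edgeR called 0 of the 80 list genes tested besides the members, as did DESeq2. An unadjusted p under 0.05 was seen for 15 of the 80, a larger share than the 10.2% of all genes (1350 of 13268). That difference in share was not tested. In ESC Podxl pA 5 of the 80 had one, beside 9.2% of all genes, and 1 was called, Pdpn (−0.78, SE 0.18, adjusted p = 0.0487), which encodes the mucin podoplanin, and 19 alternatives lost that call. In ESC-ΔZF1 1 gene each of the linkers, glycan enzymes and polarity genes fell, Stk10 (−0.72), St6gal1 (−1.11) and Patj (−0.80), against 1.29% up and 2.33% down over all genes. Stk10 lies on chromosome 11, and its fall was not called relative to that chromosome. Each of these 3 calls was lost in 7 or 8 alternatives, most of them with a library left out. In NPC-ΔZF1 St6gal1 was higher instead (0.88), and the lists gave 1 up and 2 down (linkers), 2 and 1 (sialomucins), 1 and 3 (glycan enzymes), 2 and 5 (polarity), 1 and 3 (podocyte) and 0 and 1 (CTLH), against 7.19% up and 10.5% down over all genes.

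The genes whose levels followed Podxl most closely were Lrp2 (Pearson r = 0.992), Morc4 (0.990), Cldn6 (0.989), Prtg (0.989) and Ptpn13 (0.987), of 12999 genes compared in log2 CPM over the 20 libraries that did not carry the Podxl truncation. Lrp2 encodes the endocytic receptor megalin, Cldn6 a tight junction claudin and Prtg protogenin. These libraries share their states and lines, and the ESC and NPC groups lie apart, so r is a description of these libraries and carries no test. Of the members, Podxl2 reached 0.72, Cd34 0.70, Slc9a3r1 0.63, Mkln1 −0.15, Slc9a3r2 −0.40 and Ezr −0.43. For Ezr the value was −0.96 within the rescue libraries and 0.76 within the others, so its pooled r stands for neither.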

How the data were processed

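RNA was rRNA-depleted and random-primed, and paired reads were aligned by the authors with STAR to mm10 and counted per gene symbol with strand ignored. The version of STAR and the annotation used for counting are not given in the sources used here. The authors deposited raw counts, 1 table for 8 rescue libraries and 1 for 18 parental and truncated libraries. A further 3 columns of the second table matched no sample and were not used. The deposited counts were tested here, each table in 1 fit over all its libraries, with edgeR 4.0.16 in R 4.3.3 (filterByExpr, TMM, quasi-likelihood F test on group means, Benjamini-Hochberg adjustment over 16641 and 13268 genes). The cutoffs were an adjusted p of 0.05 and an absolute log2 fold change of 0.5, and SE is the absolute fold change over the square root of F. CPM used TMM library sizes, and RPKM the merged exons of GENCODE M21. Shares were compared by exact permutation.

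The members and gene lists were chosen with earlier results of these data known. Genes named were the members, tested genes within 1 Mb of Podxl, up to 3 called genes with the largest change per list and comparison, and the 5 genes most like Podxl; Grb10 served as the check of its line. Alternatives were DESeq2 1.42.0, other scalings, filters and cutoffs, a replicate block, only the groups compared, a chromosome 11 offset, and each library left out. The fits were tested on simulated data; the limit first set on the share of 2-fold changes recovered was missed in the 2 against 2 design of the rescue table and was replaced by one on 4-fold changes, so changes of 2-fold or less can be missed there. Sequences and positions came from GENCODE M21 (GRCm38) and the designed guide.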

Additional observations from a re-analysis of the deposited data

Results flagged for a closer look

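The change of Slc9a3r2 in Grb10 pA cells differed between the states. It was up by 0.61 on the log2 scale in ESC and at −0.03 in NPC, and the difference was −0.63 (SE 0.19, adjusted p = 0.0416 by edgeR's interaction test). The 3 ESC Grb10 pA libraries lay above the 3 ESC WT libraries, and the NPC groups overlapped. The call was lost in 16 alternatives, among them DESeq2 (adjusted p = 0.055), while the value stayed between −0.68 and −0.49 in those 16.

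The change of Mest in Grb10 pA cells differed between the states as well. Mest was at 184 ± 10.5 CPM in ESC WT and 69.2 ± 2.74 CPM in ESC Grb10 pA, and at 749 ± 39.3 CPM in NPC WT and 473 ± 58.0 CPM in NPC Grb10 pA. The difference of the log2 fold changes was 0.74 (SE 0.14, adjusted p = 0.00167). It was called in every alternative run, between 0.66 and 0.84.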

How the results depend on the processing

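Of 98 pairs of a member and a comparison, 26 were called, 15 of them in every alternative, and no call of a member turned its direction over 2306 alternative values. Of all genes, 31.8% to 41.9% were called between NPC and ESC, where most of the 26 calls lay. The shares were 3.61% and 17.6% in ΔZF1 against WT and 0.339% to 16.6% in truncated lines against WT. For differences between states they were 0.098% to 5.9%. Of the 7 members, those called in ΔZF1 against WT were 2 in all, 0 at an adjusted p of at most 0.01, 1 with only the groups compared and 1 to 2 with a library left out. Between NPC and ESC in the rescue lines there were 7 calls, 4 at 0.01 and 4 to 9 with a library left out. Truncated lines against WT gave 5, and 3 to 6 with a library left out. Between NPC and ESC in the other lines there were 11, 6 with at least 10 counts in every library (fewer members are then tested) and 10 to 12 with a library left out. Differences between states gave 1, then 0 at 0.01, 0 with total counts only, 2 without a filter, 0 with only the groups compared and 0 to 4 with a library left out. Without a library, the change in Podxl pA ranged over 0.48 to 1.09 (ESC) and 0.30 to 0.47 (NPC) for Cd34, 0.59 to 0.91 and −0.21 to 0.22 for Podxl2, and −0.09 to 0.04 and −0.07 to 0.04 for Mkln1, with no call. The share difference of −32.1 points was −48.2 with longest transcripts, −37.0 with counts alone and −33.2 to −31.0 without a library. Nf2, a chromosome 11 gene, was −0.52 in NPC-ΔZF1 and turned to 0.042 with the chromosome 11 offset.

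Replicate numbers did not pair the libraries: deviations of same-numbered libraries correlated at −0.137 to 0.132 (rescue) and −0.209 to 0.154. With a replicate block, truncated lines against WT gave 4 calls and NPC against ESC of those lines and WT gave 10, since Podxl2 in NPC Grb10 pA (0.83, adjusted p = 0.0655) and Slc9a3r2 in NPC against ESC Podxl pA (−0.49) were then missing, and no other member's call changed. Over all genes, calls in ESC-ΔZF1 were 601, and 52 to 1601 over the alternatives with all libraries; in NPC-ΔZF1 2936, and 1222 to 3600; in ESC Podxl pA 45, and 17 to 94; in NPC Podxl pA 73, and 40 to 133. At 3 to 58 counts for Podxl2 and 1 to 21 for Cd34 in ESC of the second table, depth limits what can be said of either.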
